A study of Tupaia belangeri with 15 samples.

Results

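The Notch receptors, their ligands JAG1 and DLL1, the DNA-binding factor RBPJ, the Mastermind coactivators and the target gene HES1 were followed through the retina of the tree shrew (TS, *Tupaia belangeri*). The 10 members (*NOTCH1*, *NOTCH2*, *NOTCH3*, *MAML1*, *MAML2*, *MAML3*, *RBPJ*, *HES1*, *JAG1* and *DLL1*) were taken by gene name from the 83605 annotated features, and each had a feature of exactly its name. Single-nucleus RNA sequencing (snRNA-seq), in which RNA of isolated nuclei is counted as unique molecular identifiers (UMIs), was applied to whole frozen retinas of untreated TSs of no stated strain, with 5 retinas per stage (Infancy, Mature and Senile). Infant and mature animals came from one animal centre and senile animals from another institute, so the senile stage and its source cannot be told apart. The labels give no age in numbers, and p-values measure the spread between these retinas.

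In Notch signalling a ligand of the Jagged or Delta family on one cell binds a Notch receptor on its neighbour, the receptor is cleaved, and its intracellular part enters the nucleus. There it binds RBPJ, and a Mastermind (MAML) protein joins them to switch on genes such as *HES1*, while RBPJ without Notch can hold the same genes off. In the retina the pathway is known for keeping progenitors from becoming neurons and for favouring Müller cells, the radial glia of the tissue.

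The matrices held 120437 barcodes with 13429873 to 58734300 UMIs per library, pairs of libraries shared 4 to 30 barcodes, and 111825 nuclei were kept after filters and doublet removal. Members and pathway genes were kept out of the clustering. Of 123 clusters, 95 were named by markers and gave 9 classes: cones (15185 nuclei), rods (1056), bipolar cells (BCs, 31549), horizontal cells (HCs, 1569), amacrine cells (ACs, 31591), retinal ganglion cells (RGCs, 5500), Müller cells (6196), astrocytes (1720) and microglia (878). These names mean "like" the cell type, and 16581 nuclei took none. All 7 cone, 6 rod, 7 Müller and 9 microglial markers were highest in their own class, as were 6 of 7 BC, 5 of 6 HC, 7 of 8 AC, 6 of 8 RGC and 4 of 5 astrocyte markers. The astrocyte label did not hold in 2 retinas: the 5 astrocyte markers summed to 260.05 CPM (the counts of a class in a retina scaled to a common total, as in the usual CPM unit) in Mature 4 and to 1203 in Senile 3, against 3084 to 8240 in the other 13. In the same nuclei Müller markers summed to 1322 CPM, BC markers to 744 CPM and HC markers to 571 CPM in Mature 4, and in Senile 3 cone markers to 2140 CPM. The medians of these sums in astrocytes over retinas were 1707, 744, 87.0 and 198 CPM. In Mature 4 only the HC sum was therefore above the usual level of the class. In RGCs the BC markers summed higher than the RGC markers in 7 of 15 retinas, all of them libraries labelled Cell Ranger 7.0.1 (Infancy 4 and 5, Mature 3 to 5, Senile 4 and 5), and in HCs and microglia of Senile 3 the cone markers were higher than their own. Where a difference between classes described here changed its call without these 11 units of class and retina, both results are given. Rods of Senile 1 (2 nuclei) were left out, and rods of Senile 3 also carried cone markers at 2041 CPM.

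Receptor, effector and ligand transcripts were spread over the classes in different ways. Among the 9 named classes *NOTCH2* and *HES1* were highest in the macroglia (Müller cells and astrocytes), *MAML2* in glia, BCs and cones, and *JAG1* in photoreceptors. Over all 36 pairs of classes and 10 members, 211 of 360 within-retina differences passed an exact sign-flip test of log2(CPM + 1) with Benjamini-Hochberg adjustment over the members, 209 when adjusted over all features. The share of all features and pairs that passed was 53.4%, so the count lies near the background and is no result about the members. Without the 11 units 212 pairs passed, 201 of them shared with the 211. *MAML3* passed in 33 of 36 pairs and *MAML2* in 32, *NOTCH3* in 10 and *NOTCH1* in 0, where no pair reached an unadjusted p under 0.05 because all values were 0. The *NOTCH3* calls of BCs over rods, HCs and microglia rest on 13 UMIs among 80835678 in BCs. The other classes had 0 among 3009550, 6121546 and 1902241 UMIs, so level and depth cannot be told apart there.

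**Figure D1:**
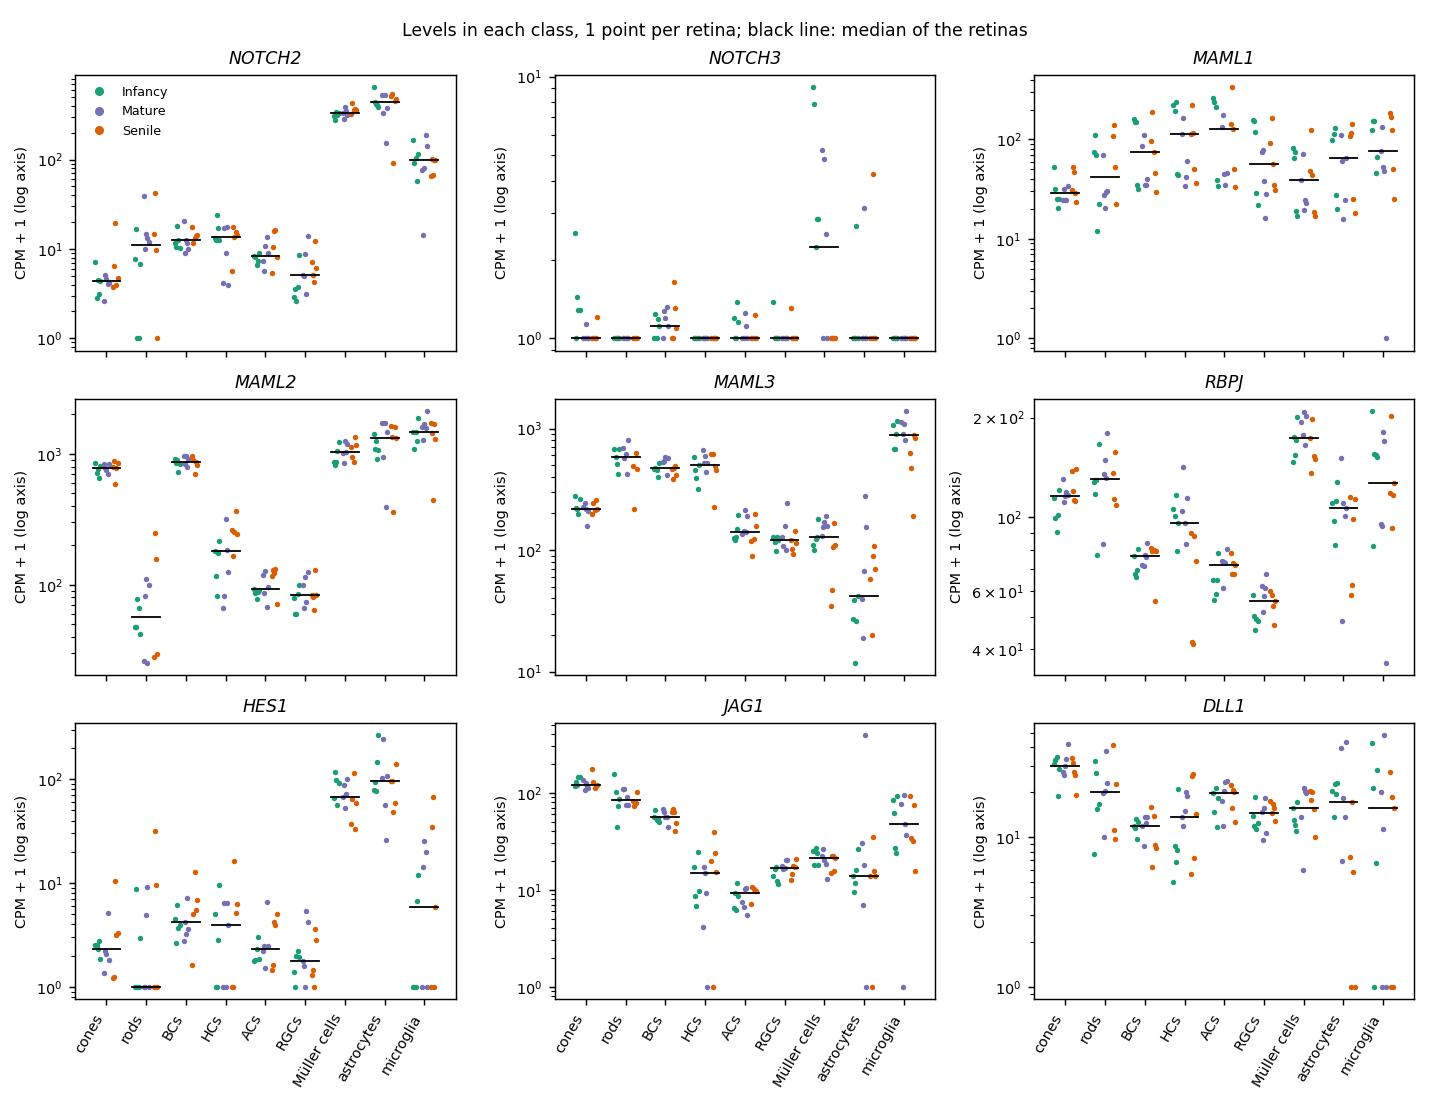
CPM + 1 on a log axis for 9 members in the 9 classes, 1 point per retina coloured by stage, with the median of the retinas as a black line (14 retinas for rods, 15 otherwise). NOTCH2 and HES1 stand out in Müller cells and astrocytes, MAML2 falls into a high group (microglia, astrocytes, Müller cells, BCs and cones) and a low group, and JAG1 is highest in cones with a mean of 126 CPM.

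*NOTCH1*, the receptor best known from developing tissue, had 0 UMIs in all 15 retinas, which in 386721576 UMIs allows a level of up to 0.00776 CPM (3 counts; counting error only). Its antisense feature *NOTCH1-AS-1* had 1 UMI. *NOTCH1* was therefore not detectable at this depth in this annotation, and no class or stage could be compared for it.

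*NOTCH2* was highest in the macroglia among the named classes, and its level in a group of nuclei without a name, described next, overlapped with that of Müller cells. In Müller cells of the infant retinas it stood at 307, 275, 340.4, 315 and 332 CPM, in mature retinas at 331, 286, 389, 352 and 315 CPM, and in senile retinas at 326, 434, 357, 371 and 353 CPM, so that the 3 stages overlapped. The mean was 339 CPM ± 40.1 (SD, n = 15). In astrocytes it was 419 ± 145 (SD, n = 15), and 465 ± 84.9 CPM (n = 13) without the 2 retinas whose astrocyte markers were low. With all retinas these 2 classes were not separated (exact sign-flip p = 0.384), but without both retinas astrocytes were higher in 13 of 13 (log2 difference, Müller cells minus astrocytes, -0.45, exact sign-flip adjusted p = 0.000792). Müller cells exceeded microglia, at 97.2 ± 43.7 CPM, in 15 of 15 retinas. In the 6 neuronal classes means lay between 4.38 CPM in cones and 12.5 CPM in rods. Free RNA can place UMIs in nuclei that do not express a gene, and its part in such low values was not tested.

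*NOTCH2* was also high in one group of neuron-like nuclei that took no class name. Clusters 9 and 66 (2880 nuclei in all 15 retinas) were led by *MEGF11*, a receptor for cell spacing, and *GABRA4*, with *SLC5A7*, the choline transporter, and *PRKCQ* among their leading genes. AC markers scored best in both, and they stayed unnamed because the leading gene *MEGF11* was fixed as an HC marker. The study also reports *MEGF11*, beside *CHAT*, as a cholinergic marker in its starburst ACs. The AC and neuronal means given here leave these clusters out unless stated. Their *NOTCH2* level ran from 249 to 400.4 CPM over retinas (mean 308 ± 42.0, SD, n = 15), while that of ACs ran from 4.42 to 15.1 CPM. These 2.58% of nuclei held 24.1% of all *NOTCH2* UMIs, against 30.5% in Müller cells and 10.3% in astrocytes. A further unnamed cluster, led by *MECOM* and mostly from Mature 4, had a mean *NOTCH2* level of 212 ± 99.8 CPM (SD, 13 retinas with at least 10 of its nuclei) and held 10.85% of *NOTCH2* UMIs, or 6.01% without Mature 4. *HES1* did not share the pattern: the clusters held 11 of its UMIs, a mean of 0.823 CPM. Among BC clusters one, led by *PDE1A* and *ZNF804B* (cluster 19, 1421 nuclei), had *NOTCH2* at 99.3 CPM, where the median BC cluster had 4.04 CPM. Clusters are given as descriptions, with no test.

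**Figure D2:**
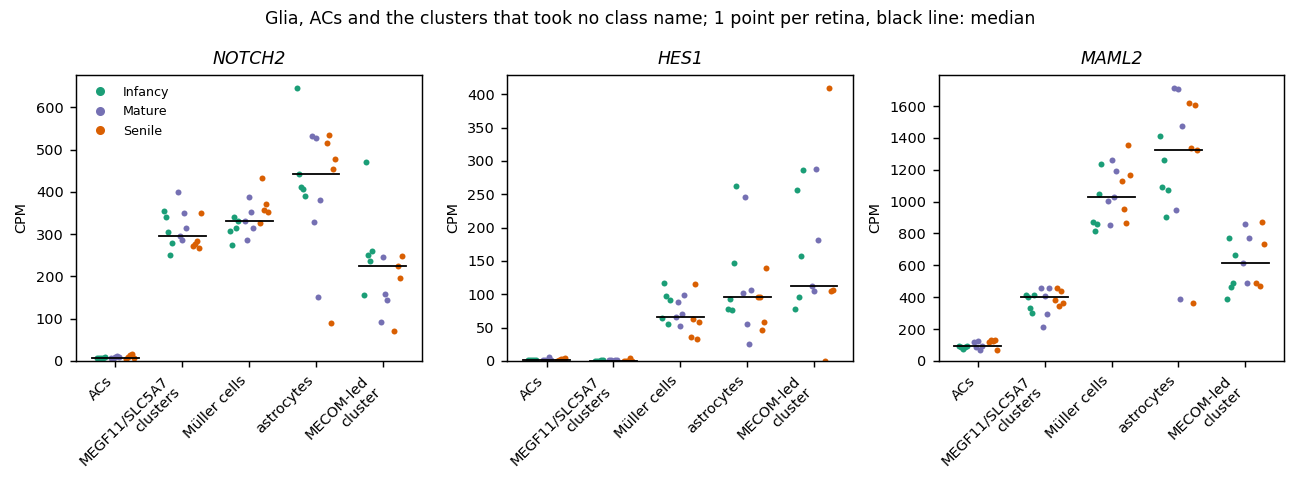
CPM of NOTCH2, HES1 and MAML2 in ACs, the 2 clusters led by MEGF11 with SLC5A7, Müller cells, astrocytes and the MECOM-led cluster, 1 point per retina with at least 10 nuclei and the median as a black line. NOTCH2 in the MEGF11 and SLC5A7 clusters (249 to 400.4 CPM) overlaps with Müller cells (275 to 434 CPM), while HES1 there lies near 0.

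*NOTCH3*, a receptor known from pericytes and vascular smooth muscle, was rare, with 168 UMIs in all. A cluster with pericyte, smooth muscle and endothelial markers (cluster 70, 433 nuclei, unnamed for carrying markers of more than 1 type) held 47 of them, 28.0% of the UMIs in 0.387% of the nuclei. A cluster led by *MECOM* held 29 and Müller cells 28. The Müller UMIs came from infant retinas (5, 4, 1, 3 and 3 UMIs) and mature retinas (2, 0, 7, 3 and 0), and all 5 senile retinas had 0. In CPM the Müller values ran from 1.24 to 8.11 in infancy and from 0 to 4.25 in maturity. The low-count filter left *NOTCH3* untested between stages within every class. Without that filter 1 stage test of *NOTCH3* in Müller cells passed, on these few UMIs. Over all nuclei senile minus infancy was -1.86 (SE 0.66, edgeR adjusted p = 0.283).

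Of the ligands, *JAG1* had its highest means among the named classes in cones and rods. In cones it measured 117, 129, 120.04, 144 and 145 CPM in infancy, 133, 105, 125, 115 and 112 CPM in maturity, and 174, 127, 111, 116 and 119.8 CPM in senility, and the stages overlapped. Cones (126 ± 17.4 CPM, SD, n = 15) exceeded rods (88.5 ± 25.6, n = 14) in 12 of 14 retinas by 0.52 on the log2 scale (exact sign-flip, adjusted p = 0.00385 over all features). Rods in turn exceeded BCs (55.9 ± 8.57) in 13 of 14 retinas. Cones held 45.9% of all *JAG1* UMIs in 13.6% of nuclei, and BCs 24.1% in 28.2%. In ACs, the class with the lowest mean, *JAG1* was at 7.66 ± 1.93 CPM. The astrocyte mean of 39.2 CPM rested on Mature 4 at 389 CPM and was 12.7 ± 8.39 CPM (SD, n = 13) without Mature 4 and Senile 3. BC clusters ranged from 14.1 to 128 CPM in *JAG1*, with the highest value in cluster 6, with *HS3ST4*, *PRKCQ* and *TRPM1* among its leading genes. The vascular-marker cluster had 186 CPM pooled over 433 nuclei.

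*DLL1* was lower in range across classes. Cones (28.5 ± 5.92 CPM, SD, n = 15) exceeded rods (20.1 ± 10.53, n = 14) in 11 of 14 retinas (exact sign-flip, adjusted p = 0.0148). From rods down to BCs (10.53 ± 2.60 CPM) no class was separated from its neighbour by the test in the order rods, ACs, astrocytes, microglia, Müller cells, RGCs, HCs, BCs, with all units or without the 11 doubtful ones. Classes further apart in this order could separate. ACs exceeded BCs in 15 of 15 retinas and Müller cells in 13 of 15. BCs were below Müller cells in 13 of 15 and below rods in 12 of 14 (exact sign-flip, adjusted p up to 0.00937 over all features).

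*RBPJ*, the DNA-binding factor on which all Notch receptors converge, was detected in every class and retina compared. Müller cells were highest, at 173 ± 23.0 CPM (SD, n = 15, range 135 to 208), followed by microglia at 132 ± 48.2 CPM (higher in Müller cells in 11 of 15 retinas, exact sign-flip adjusted p = 0.0322, and 0.0527 without Senile 3). Microglia were not separated from rods (129 ± 28.9, n = 14), nor rods from cones (115 ± 13.4). RGCs were lowest at 54.3 ± 6.27 CPM, below ACs (68.5 ± 7.29) in 15 of 15 retinas, and 54.1 ± 5.50 CPM (n = 8) without the 7 retinas with higher BC markers, below ACs in 8 of 8.

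Each Mastermind gene had its own order of classes. *MAML2* was high in microglia (1466 ± 385 CPM, SD, n = 15, and 1539 ± 270 without Senile 3, the lowest at 442 CPM), astrocytes (1215 ± 428, and 1344 ± 279 without Mature 4 and Senile 3), Müller cells (1043 ± 173), BCs (862 ± 80.1) and cones (771 ± 79.1). By the exact sign-flip test astrocytes and Müller cells were separated only when Mature 4 and Senile 3 were left out. From cones *MAML2* stepped down by 2.19 on the log2 scale to HCs (188 ± 87.7 CPM), lower than cones in 15 of 15 retinas. ACs (99.5 ± 22.2), RGCs (85.9 ± 22.4) and rods (76.6 ± 61.8, n = 14) closed the order. ACs as named were not separated from RGCs (exact sign-flip adjusted p = 0.0595), nor RGCs from rods (adjusted p = 0.18). With the 2 unnamed clusters led by *MEGF11* counted as ACs, the AC mean rose to 130 ± 27.9 CPM (SD, n = 15), still below the HC mean. This setting was chosen after seeing the data, and its difference from RGCs was not tested. Rods of Senile 3, which also carried cone markers, were at 246 CPM, and without them rods had 63.6 ± 39.7 CPM (n = 13). Without the 7 retinas with higher BC markers RGCs had 73.1 ± 14.2 CPM (n = 8) and were below ACs in 8 of 8 retinas (exact sign-flip adjusted p = 0.0155). All 7 were libraries labelled Cell Ranger 7.0.1, so marker sums and version cannot be told apart in this subset. Means of *MAML2* in RGCs and ACs were 74.5 and 100.3 CPM in version 5.0.1, and 95.8 and 98.8 CPM in 7.0.1. Cones and rods, both photoreceptors, thus sat on either side of the step. The HC class was uneven within itself: cluster 49 (621 nuclei, led by *LAMA2* and *PMFBP1*) had *MAML2* at 405 CPM and cluster 33 (948 nuclei, led by *HS3ST3A1li1* and with *THSD7B* among its leading genes) at 37.9 CPM. Among 52 AC clusters the median was 49.5 CPM, and cluster 105, with *SYT10* and *NPY* among its leading genes, reached 874 CPM. BC clusters ran from 314 to 1304 CPM.

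*MAML3* followed another order. Microglia were highest (854 ± 301 CPM, SD, n = 15, and 902 ± 247 without Senile 3, the lowest at 188 CPM), then rods (554 ± 148, n = 14), HCs (491 ± 119, and 510.05 ± 96.6 without Senile 3) and BCs (478 ± 61.3), of which HCs and BCs did not differ (exact sign-flip p = 0.977). Cones had 224 ± 29.9 CPM, below BCs in 15 of 15 retinas, and ACs 148 ± 35.5. Müller cells (126 ± 45.3) and RGCs (126 ± 36.9) were not separated (exact sign-flip p = 0.699, and 0.406 in the 8 retinas without higher BC markers in RGCs), and astrocytes were lowest at 69.3 ± 69.8 CPM, or 51.7 ± 40.9 without Mature 4 and Senile 3. BC clusters spanned 135 CPM in cluster 5 to 1181 CPM in cluster 40, led by *HS3ST4* with *RELN* and *DMBX1*. In AC cluster 30, with *TRHDE*, *CDH6* and *OPRM1* among its leading genes, *MAML3* reached 523 CPM while *MAML2* was at 26.5 CPM.

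*MAML1* had no full order of classes that held in both versions, though ACs, HCs and BCs lay above cones in every retina. Over all 15 retinas ACs (127 ± 99.4 CPM, SD) and HCs (112 ± 76.6) had the highest means and cones (30.8 ± 10.6) the lowest, and ACs were not separated from HCs (exact sign-flip p = 0.479). In the 7 libraries labelled Cell Ranger 5.0.1 ACs (214 ± 71.8 CPM) led HCs (180.1 ± 52.3), and cones (34.5 ± 12.005) were lowest. In the 8 libraries labelled 7.0.1 the means of HCs (52.5 ± 26.2), microglia (50.7 ± 35.2) and ACs (50.1 ± 30.98) lay within their SDs, and Müller cells (21.9 ± 8.76) came below cones (27.6 ± 8.67). These orders within a version are descriptions, and no test of them is given here.

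*HES1*, a transcriptional repressor switched on by Notch, was highest in the macroglia among the named classes and was also present in a cluster without a name that came mostly from 1 retina. Astrocytes had 108 ± 67.4 CPM (SD, n = 15), or 119 ± 65.4 without Mature 4 and Senile 3 (n = 13), and Müller cells 73.8 ± 26.4, with no separation of the 2 over all retinas (exact sign-flip p = 0.126). Without both retinas astrocytes were higher in 11 of 13 (Müller cells minus astrocytes -0.68, exact sign-flip adjusted p = 0.0148). Müller cells held 20.6% and astrocytes 8.69% of all *HES1* UMIs. Müller cells exceeded microglia (11.8 ± 18.2, and 7.95 ± 10.9 without Senile 3) in 15 of 15 retinas. Means in neuronal classes were 1.17 to 4.37 CPM, the highest in rods, which fell to 2.34 ± 3.53 CPM (SD, n = 13) without Senile 3 at 30.7 CPM. The *MECOM*-led cluster 7 (2664 nuclei, 59.5% of them from Mature 4) held 46.1% of all *HES1* UMIs, and 20.9% without Mature 4, when Müller cells held 30.7%. Over the 13 retinas with at least 10 of its nuclei *HES1* ran from 0 to 409 CPM (median 111.6), a range that contains that of astrocytes. It held 12.1% of *DLL1* UMIs, and 3.82% without Mature 4. With 2 of 6 markers of the retinal pigment epithelium it fell short of a name.

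The contrast of Müller cells with the mean of the 6 neuronal classes placed the whole pathway beside the members (14 retinas with all units of class and retina kept, exact sign-flip test, adjustment over 14948 features). Of all features 70.0% passed, 4277 higher and 6185 lower in Müller cells. Among the members 5 were higher and 3 lower. On the log2(CPM + 1) scale *NOTCH2* was higher by 5.38 ± 0.35 (SD), *HES1* by 4.71 ± 0.88 and *MAML2* by 2.40 ± 0.25, each in 14 of 14 retinas. Counting clusters 9 and 66 as ACs raised the AC mean of *NOTCH2* from 8.497 to 41.4 CPM and left a difference of 5.01 ± 0.33, in 14 of 14 retinas (an alternative chosen after seeing the data). *RBPJ* (1.04 ± 0.19, in 14 of 14) also passed. *NOTCH3* passed (1.07 ± 1.16, higher in 8 of 14) on 28 Müller UMIs. Müller cells also had higher summed pericyte and smooth muscle markers (mean 90.2 CPM, against 2.12 to 7.30 in neuronal classes) and endothelial markers (1147 CPM, against 35.6 to 95.7), whose part in the *NOTCH3* difference was not tested. *MAML3* was lower by a mean difference of -1.14 ± 0.47, *MAML1* of -0.68 ± 0.30 and *JAG1* of -0.56 ± 0.34, and *DLL1* did not pass (-0.16 ± 0.36, adjusted p = 0.156).

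The 65 other genes of the pathway, in 6 lists, did not all lean to Müller cells. Their counts stand beside the 70.0% of all 14948 features that passed, 4277 higher and 6185 lower. That share was not limited to features that reached 10 CPM in a neuronal class, as some list counts are. The counts are therefore descriptions and no result about the lists. Genes under 10 CPM in every class mean were not tested, and a gene that passed this filter only through Müller cells had to have a higher mean there. Of 10 target genes beyond *HES1* 6 were tested, and 1 of these, *HEY1*, reached 10 CPM in a neuronal class. The list's count of higher genes thus rests on genes that entered through glia and is not read here. Their levels are given as a description, with *HEY2* at 41.6 against 2.86 CPM, *SOX9* at 44.2 against 4.17, *HES5* at 30.1 against 2.51 and *CCND1* at 6.02 against 0.543. For *HEY1* the log2 difference was 1.52, positive in each of the 14 retinas. Of the genes of endocytosis and ubiquitin ligation 9 of 13 were tested, and of the 8 that reached 10 CPM in a neuronal class 6 were higher and 1 lower. *NEURL1B* (23.6 against 0.800 CPM), a ligase that acts on Notch ligands, and *NEURL1* (0.890 against 18.2 CPM), its relative, stood on opposite sides, but *NEURL1B* entered only through glia and is a description. *NUMB*, an inhibitor of Notch, was at 411 against 114 CPM and *DTX4* at 66.3 against 13.5.

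Counts of the other steps went both ways and are likewise descriptions beside the 70.0% of all features that passed. Of the RBPJ coactivators 4 of 6 were higher, among them the acetyltransferase *KAT2B* (log2 difference 1.31) and *SNW1* (1.28), and *MAMLD1* was lower (-2.63). Of the 12 corepressors tested of 15, 4 were higher and 5 lower, with *TLE3* (1.49) and *TLE1* (1.21) against *TLE2* (-1.26) and *BEND6* (-1.21). Of 14 genes of receptor glycosylation and cleavage 11 reached 10 CPM in a neuronal class, and of these 4 were higher, including the γ-secretase subunit *APH1B* (2.34), and 2 lower, including the glycosyltransferase *RFNG* (-0.77). Of 7 further receptors and ligands 3 were tested, and *NOTCH4* was higher (1.46), and *DNER* (-2.37) and *DLL3* (-0.63) were lower. The part of the higher endothelial marker sums of Müller cells, given above, in the *NOTCH4* difference was not tested.

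Between stages none of the members passed the test. The fits used edgeR's quasi-likelihood test on UMIs summed per retina and class, with stage and Cell Ranger version as terms and Benjamini-Hochberg adjustment over all features of a class. Of 174 member tests (58 combinations of gene and class, 3 contrasts) 0 passed, 15 had an unadjusted p under 0.05, and 0.709% of all feature tests passed. DESeq2 with the same model called 1. Summed over all nuclei, 0 of 27 tests passed, 3 had an unadjusted p under 0.05, DESeq2 called 0, and 0.837% of all feature tests passed. In such sums fewer cells of a type and less RNA per cell cannot be told apart.

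**Figure D3:**
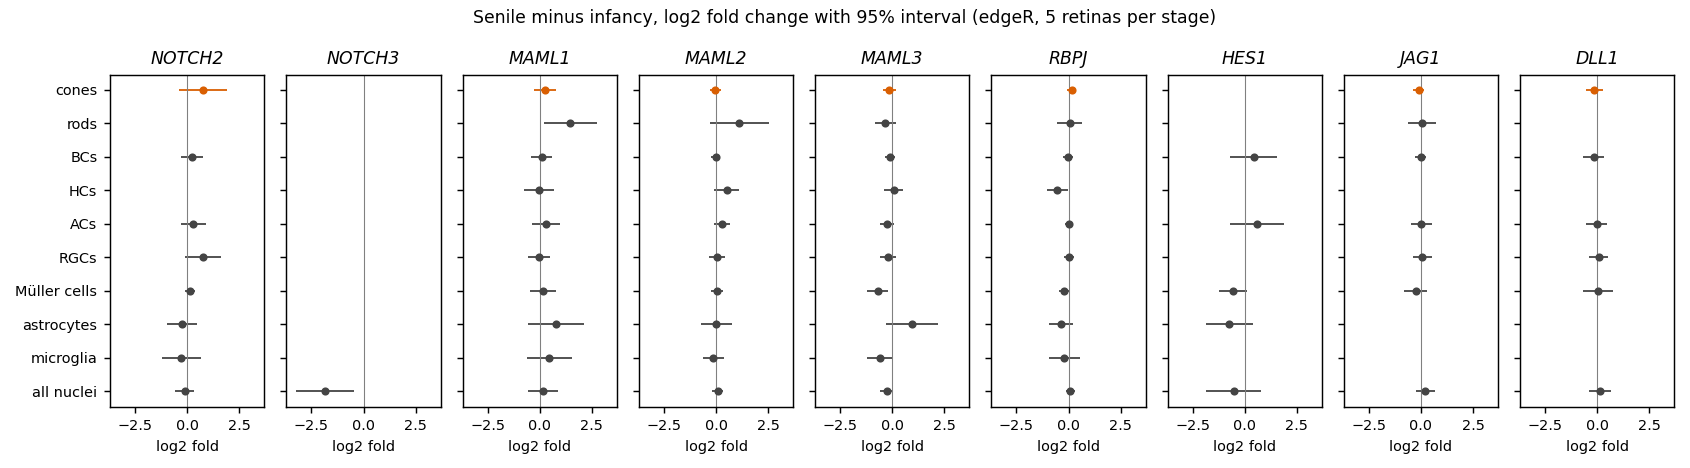
Senile minus infancy log2 fold changes of 9 members in each class and in all nuclei, with 95% intervals from edgeR; cones are in orange, and a combination without a point did not pass the low-count filter. No point passed the adjusted threshold, and MAML2 in cones lies at -0.03 with an interval of -0.29 to 0.22.

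*MAML2* in cones was tested on its own because the study reports its rise with age in long-wave cones of the same retinas. Its direction here is therefore no independent evidence. The values here are sums per retina over all cone clusters, the short-wave one included, so the measures differ. The infant retinas had 843, 713, 765, 656 and 811 CPM, the mature retinas 841, 772, 754, 704 and 831 CPM, and the senile retinas 793, 874, 588, 778 and 848 CPM. The 3 stages overlapped throughout, with Senile 3 the lowest and Senile 2 the highest of all 15. Senile minus infancy was -0.03 on the log2 scale (SE 0.12, 95% interval -0.29 to 0.22, edgeR adjusted p = 0.949), and the sign turned in an exact permutation of the retinas (0.03, p = 0.825) and without Senile 3 (0.08). Mature minus infancy was 0.04 (SE 0.12, adjusted p = 0.965). Pooled over nuclei the cone clusters had *MAML2* at 453 to 882 CPM. The highest was the one with *OPN1SW*, the short-wave opsin, among its leading genes. The lowest, cluster 43, had 46.7% of its nuclei from Senile 3, and its median over retinas was 672 CPM, against 697 CPM in cluster 0.

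**Figure D4:**
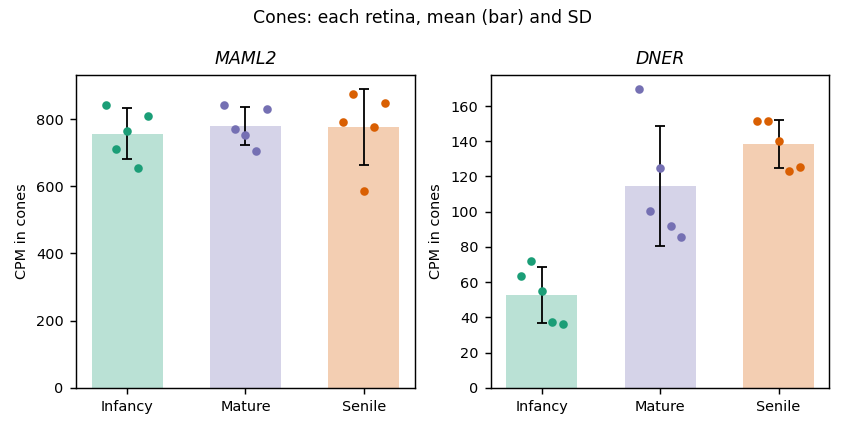
CPM of MAML2 (left) and DNER (right) in cones of each retina, with the mean as a bar and the SD as an error bar (n = 5 retinas per stage). MAML2 overlaps across stages, while every infant retina lies below every mature and senile retina for DNER (infancy 35.95 to 71.8 CPM, maturity 85.7 to 169 CPM, senility 123 to 152 CPM).

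*MAML3* in Müller cells had the smallest unadjusted p of the member tests. Infant retinas stood at 109, 99.8, 122, 126 and 179.8 CPM, mature retinas at 129.5, 153, 170.2, 189 and 157 CPM, and senile retinas at 33.4, 46.3, 104, 166 and 109.7 CPM. The senile values were the lowest in Senile 1 and Senile 2, both of version 5.0.1, and the other 3 overlapped with the earlier stages. Senile minus mature was -0.84 (SE 0.23, edgeR adjusted p = 0.185), and over 27 alternatives the adjusted p ran from 0.00381 to 0.632 with 4 past the threshold. In the same nuclei the Müller markers summed to 6507 to 11829 CPM in maturity and 6597 to 10649 CPM in senility. *HES1* in Müller cells had a senile minus infancy difference of -0.58 (SE 0.32, adjusted p = 0.556) and *NOTCH2* one of 0.12 (SE 0.12, adjusted p = 0.824).

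Of the other pathway genes, 2 of 918 tests within classes passed, below the 0.709% of all feature tests, and both were *DNER* in cones. DNER is a transmembrane protein with Notch-like repeats that is known from neurons. In infancy it stood at 63.7, 71.8, 54.7, 37.3 and 35.95 CPM, in maturity at 169, 100.5, 125, 91.9 and 85.7 CPM, and in senility at 152, 151, 140.1, 123 and 126 CPM. Every infant retina was below every mature and senile one, also among libraries of the same Cell Ranger version. *DNER* rose by 1.22 from infancy to maturity (SE 0.16, edgeR adjusted p = 0.000368) and by 1.43 from infancy to senility (SE 0.16, adjusted p = 5.65e-05) on the log2 scale, and senile minus mature was 0.21 (adjusted p = 0.679). *DNER* was highest in RGCs, at a mean of 528 CPM. RGC markers summed in cones to 42.9 to 113 CPM in infancy, 47.7 to 121 in maturity and 70.2 to 151 in senility, and AC markers to 61.0 to 128, 48.9 to 136 and 41.9 to 435 CPM. Their part in the difference was not tested. The senile minus infancy difference of *DNER* did not pass in the other classes tested. It was 1.15 in microglia, 0.86 in HCs, 0.69 in astrocytes and 0.41 in BCs (edgeR adjusted p from 0.410 to 0.908). In ACs it was 0.04 (adjusted p = 0.974), in RGCs 0.01 and in Müller cells 0.01. The difference between classes was not tested.

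Libraries were processed with 2 versions of Cell Ranger, a count pipeline. The labels give version 5.0.1 for 7 libraries and 7.0.1 for 8, and both occur in every stage. The version goes with the time of deposit and largely with depth, so these cannot be told apart. Median UMIs per barcode were 1461 to 3068 in the 5.0.1 libraries. In the 7.0.1 libraries they were 2268 to 5611, with Senile 4 (2268) and Senile 3 (2367) the lowest. In all nuclei 3 of 9 members passed the edgeR test of version with stage as a term, while 35.4% of all features passed, and within classes 9 of 58 passed, with 22.1% of all features. Both counts lie at or below the share of all features and are no result about the members as a group. *MAML1* made up 5 of the 9 calls within classes.

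In ACs *MAML1* stood at 263, 239, 213, 132.5, 176, 142 and 335 CPM in the 7 libraries of version 5.0.1. In the 8 libraries of 7.0.1 it stood at 37.9, 32.9, 44.3, 34.1, 44.7, 49.5, 32.5 and, in Senile 3, 125 CPM. Version 5.0.1 lay above version 7.0.1 without overlap, with Senile 3 nearest to the other version. *MAML1* was lower in 7.0.1 by log2 differences of -2.26 (SE 0.27) in ACs, -1.91 (SE 0.21) in RGCs, -1.78 (SE 0.25) in Müller cells, -1.78 (SE 0.20) in BCs and -1.73 (SE 0.28) in HCs (edgeR adjusted p from 5.53e-05 to 0.00131). In RGCs the version also went with the marker sums, since 7 of the 8 libraries of 7.0.1 had BC markers above RGC markers and 0 of the 7 libraries of 5.0.1 did. In cones the difference was -0.42 (adjusted p = 0.156). Rods (-1.32), astrocytes (-1.42) and microglia (-1.32) did not pass with all retinas and passed without Senile 3 (adjusted p of 0.0191, 0.00133 and 0.0066). On the log2(CPM + 1) scale the difference in each class was set against that in cones by an exact permutation of the retinas. It was larger than in cones in 7 of 8 classes, by -1.34 in Müller cells to -1.86 in ACs (adjusted p up to 0.00355), with rods at -0.87 (adjusted p = 0.0506). The microglia value (-1.79, SE 0.80) includes Mature 5, a 7.0.1 library with 13 microglia and 0 UMIs of *MAML1* in them.

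**Figure D5:**
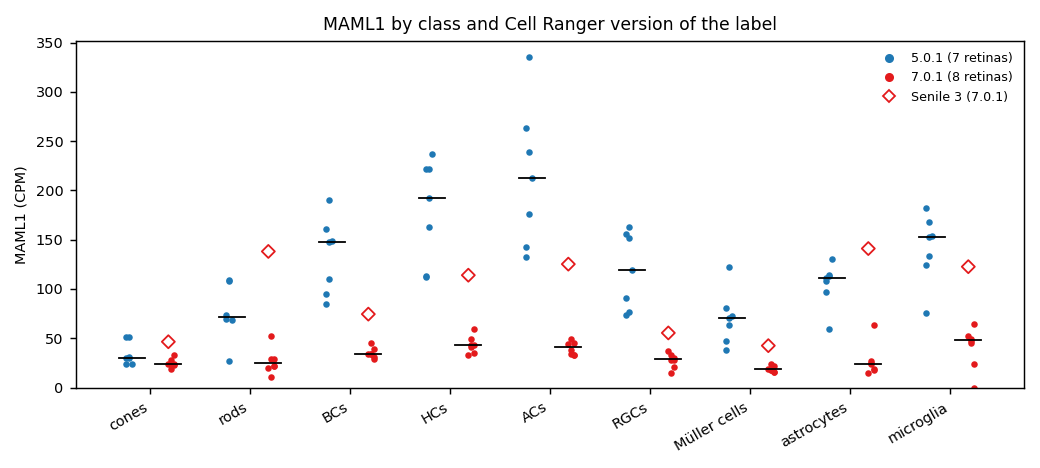
MAML1 in CPM by class for libraries labelled Cell Ranger 5.0.1 (blue) and 7.0.1 (red), 1 point per retina, with Senile 3 as an open diamond and the median of each version as a black line. In ACs all 5.0.1 libraries (132.5 to 335 CPM) lie above all 7.0.1 libraries, while in cones the versions overlap.

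In all nuclei *MAML1* was at 73.4 to 182 CPM in version 5.0.1 and 28.8 to 99.1 in 7.0.1 (log2 difference -1.74, SE 0.28, edgeR adjusted p = 0.000684). *HES1* was higher in 7.0.1 (1.96, SE 0.53, adjusted p = 0.0106), at 6.24 to 69.0 CPM against 2.32 to 7.19. Within classes *HES1* did not pass, with -0.08 in Müller cells, -0.19 in astrocytes, 0.50 in BCs and 1.09 in ACs (edgeR adjusted p from 0.101 to 0.912). In sums over all nuclei the share of a cell type and the level per cell cannot be told apart. Without the *MECOM*-led cluster the 7.0.1 libraries had 4.88 to 19.7 CPM of *HES1*, against 2.32 to 6.95 (1.09, SE 0.35, edgeR adjusted p = 0.0229, and 0.0506 with Mature 4 left out too). *NOTCH2* was higher by 0.56 (SE 0.18, adjusted p = 0.0224) and did not pass on leaving out Mature 2, Senile 1 or Senile 2 (adjusted p up to 0.0875). Mature 4 was the highest library at 81.3 CPM of *NOTCH2*, and without the *MECOM*-led cluster the difference was 0.39 (SE 0.15, edgeR adjusted p = 0.0474), or 0.31 (SE 0.13, adjusted p = 0.0819) with Mature 4 left out too. Within classes *NOTCH2* did not pass. Its means in 5.0.1 and 7.0.1 were 328 and 348 CPM in Müller cells and 6.44 and 10.3 CPM in ACs. In astrocytes they were 487 and 360 CPM, with Mature 4 and Senile 3 among the 7.0.1 libraries. The other calls within classes were *MAML3* in ACs (0.40) and Müller cells (0.65), *MAML2* in HCs (0.84) and *JAG1* in BCs (-0.32). These depended on the settings. Of 23 alternatives 18 and 16 passed for *MAML3* in ACs and Müller cells, 13 for *MAML2* and 12 for *JAG1*. Of the other pathway genes 18 of 58 passed in all nuclei, below the 35.4% of all features, among them *FURIN* (-1.75) and *PSENEN* (-1.71), both of receptor processing, *DNER* (-0.96) and the Delta-like gene *DLK1* (5.37). Whether introns were counted is not given in the sources used here, and the sources name different Cell Ranger versions and different versions of the library kit. The part of these in the differences was not tested.

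Several members overlap with antisense features, which draw UMIs of their own. *MAML2-AS-5* had 20752 UMIs beside 183687 of *MAML2*, *NOTCH2-AS-1* had 1696 beside 17217 of *NOTCH2*, and the copy *RBPJli1* had 950 beside 32736 of *RBPJ*. The sources used here do not say how strand was counted, so sense and antisense levels of these pairs are uncertain. *MAML1-AS-1* had 33 UMIs.

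The genes most like each member in level were found by Pearson's r of log2(CPM + 1) over 134 units of retina and class, which share libraries and depth. For *NOTCH2* they were *SNTB1* (r = 0.911), *SLC15A2* (0.896) and *GRAMD2B* (0.864), and for *HES1* *HEPACAM* (0.873), *COL5A1* (0.865) and *SELENOP* (0.862). *MAML2* was nearest to *KBTBD11* (0.769), *MAML3* to *SGMS1* (0.839), *JAG1* to *AMMECR1* (0.764) and *RBPJ* to *KIF6* (0.723). *MAML1* was nearest to *ATP6AP2* (0.858), *SSR2* (0.843) and *ATP6V0B* (0.828). The units mix both Cell Ranger versions, and the part of the *MAML1* version difference in these values was not tested. *DLL1* (*RBM28*, 0.637) and *NOTCH3* (*S1PR1*, 0.528) had no gene as close.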

How the data were processed

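The authors aligned the reads to a TS genome (annotation TS_3.0) and made the UMI count matrices with Cell Ranger: 5.0.1 or 7.0.1 per the labels, 6.1.2 or 7.0.1 per the file headers, and a single version in the study's methods. The labels and the methods also name different versions of the 10x library kit. The deposited counts are raw UMIs of whole barcodes. Here barcodes over 200 and under 6000 detected genes, with at most 5% of UMIs mitochondrial, passed (119765). In each library the nuclei most like simulated doublets were removed, at a rate proportional to its number of nuclei (7940 in all). Then 2000 variable genes, 30 components, Harmony correction by retina and Leiden clustering at resolution 2 (leidenalg 0.10.2) gave 123 clusters. Clusters were named from marker lists, with naming thresholds set after the clusters were seen. UMIs were summed per retina and class with at least 10 nuclei. Tests were edgeR 4.0.16 (quasi-likelihood, TMM, filterByExpr, stage and version as terms) and exact 2-sided sign-flip tests within retinas on log2(CPM + 1), all with Benjamini-Hochberg adjustment at a threshold of 0.05. Features entered class tests with a mean of 10 CPM in a class or as members. DESeq2 1.42.0 was an alternative. Both tests were first tested on simulated data. The members are always named, with up to 4 called genes of largest change per pathway list. Clusters, DNER and antisense features were singled out after their values were seen. The members and lists were chosen with earlier results of these data known. Confidence intervals are 95%. The exact sign-flip test over 15 retinas cannot go below p = 6.1e-05. No sequence is printed.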

Additional observations from a re-analysis of the deposited data

Results flagged for a closer look

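Within a stage 1 retina stood apart from the other 4 by Dixon's test in 9 of 136 groups of gene and class with a mean over 50 CPM, and chance gives about 1 in 20. For *NOTCH2* in astrocytes these were Infancy 1, the highest at 645.5 CPM, and Senile 3, the lowest at 90.78 CPM, where astrocyte markers were also low. Senile 3 was also the lowest for *MAML2* in astrocytes, at 361.5 CPM. *MAML1* in rods was highest in Mature 1, at 69.31 CPM. *MAML2* in ACs was lowest in Senile 5, at 70.00 CPM. *MAML3* in BCs was lowest in Mature 4, at 410.4 CPM, and over all nuclei highest in Infancy 5, at 302.8 CPM. *RBPJ* in BCs was lowest in Senile 4, at 55.06 CPM, and *JAG1* in cones was highest in Senile 1, at 173.7 CPM.

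The version difference of *MAML1* (7.0.1 minus 5.0.1, log2) differed from that in cones by an exact permutation test. Class minus cones, on the log2(CPM + 1) scale, was -1.86 for ACs and -1.79 for microglia, -1.63 for RGCs and -1.51 for HCs, and -1.43 for BCs, -1.42 for astrocytes and -1.34 for Müller cells. The value for microglia had an SE of 0.80 and includes Mature 5, with 13 nuclei and 0 UMIs of *MAML1*.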

How the results depend on the processing

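The count of member stage calls within classes was 0, and it was 2 with libraries of version 5.0.1 only, 1 with DESeq2, 4 without a low-count filter (2 of them *JAG1* in astrocytes, 1 *NOTCH3* in Müller cells) and 0 to 2 on leaving out each retina, with 2 without Senile 4. The other calls were *MAML3* in Müller cells. For *MAML2* in cones, senile minus infancy changed sign from -0.0336 to 0.0114 without Infancy 5 and 0.0762 without Senile 3 (leaving out each retina gave -0.0901 to 0.0762), 0.0745 without Mature 4 and Senile 3, 0.0276 in the exact permutation, 0.0202 without the *OPN1SW*-led cluster and 0.054 without the 2 cone clusters with the largest share of Senile 3. These alternatives, the permutation apart, were chosen after seeing the data, except leaving out single retinas. None passed its test. Class differences numbered 204 to 226 on leaving out each retina and 155 to 227 under 9 other settings, 155 with version 7.0.1 only. Separately, without the 11 units of class and retina in which another marker list was higher, 212 passed and 21 pairs changed their call, among them *NOTCH2*, *HES1* and *MAML2* between Müller cells and astrocytes (now called) and *RBPJ* between Müller cells and microglia (no longer called). Version calls in all nuclei numbered 2 to 4 and stage calls in all nuclei 0 under every alternative run, except that without the *MECOM*-led cluster and Mature 4 there was 1 version call, *MAML1* (chosen after seeing the data). Replicate numbers were not taken to pair the retinas, by the rule that every pair's correlation be over 0.1: 13 of 15 same-number pairs were, the 2 pairs of Mature 3 with Infancy 3 and Senile 3 were negative (range -0.435 to 0.617), and 3 of 15 retinas correlated best with their own number. With the replicate number as a block in place of the version, stage calls within classes stayed at 0 and *MAML2* in cones was -0.0725. *NOTCH1* had 0 UMIs, and *NOTCH3*, with 168, was tested within classes between stages only without the low-count filter.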
